A study of Ovis aries with 36 samples.

Results

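The genes described here are 9 transcription and chromatin regulators of fat cell formation: PPARG, CEBPA, CEBPB, CEBPD, ARID5B, LMNA, EBF1, KLF15 and ZNF423. They were taken by name from a list that was drawn up with earlier results of these data known. The study had already named ARID5B, CEBPB and LMNA as differing between diets in fetal fat. Of the 9, 7 carried their own name in the count tables, PPARG was present as PPARG2 (a name that the RefSeq gene table lists as a synonym of PPARG), and EBF1 was not analysed here. The 8 genes followed below stand among 31425 rows (muscle), 31088 rows (subcutaneous fat) and 31852 rows (perirenal fat) once loci that share a name were summed.

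RNA was sequenced from longissimus dorsi muscle, the subcutaneous fat depot near the shoulder blade and the perirenal fat depot of sheep fetuses. Their Polypay dams, bred to a single sire, were fed from mid-gestation until necropsy in late gestation on limit-fed corn (CN), limit-fed dried corn distillers grains (DG) or ad libitum alfalfa haylage (HY), with isoenergetic intakes. Each diet and tissue had 4 libraries, 2 from female (F1, F2) and 2 from male fetuses (M1, M2), which gave 36 libraries. Libraries were made from the pooled RNA of several fetuses, except CN F2, which the study's list gives as 1 fetus in each tissue. Some pools of a diet held fetuses of the same dam, and the pools of the 3 tissues came from the same fetuses, so the p-values measure the spread between pools and not between unrelated animals.

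Fat cells arise from mesenchymal progenitors in a relay of transcription factors. CEBPB and CEBPD act early and switch on PPARG and CEBPA, which then keep each other active and turn on the genes of lipid storage. ZNF423 marks committed fat precursors, KLF15 is a glucocorticoid-responsive factor that is active in both fat and muscle, ARID5B is a DNA-binding partner of a histone demethylase, and LMNA encodes the lamins A and C of the nuclear envelope, whose mutations cause loss of fat depots.

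Total counts per library lay between 6705766 and 29625146, with a median of 14406914. In muscle the totals of the CN pools (13749762 to 19387181) were all below those of the DG pools (20370147 to 29625146). Levels are given as CPM, edgeR's unit for the counts of a gene relative to the total of its library, scaled by the trimmed mean of M-values over all 36 libraries. These values depend on transcript length, so levels were compared between pools and not between genes. The adipocyte markers (6 of 6 in the tables) summed to 9.74 to 82.8 CPM in muscle, with LEP at 0 in each muscle pool, to 2047 to 12250 CPM in subcutaneous and to 6161 to 15010 CPM in perirenal pools. The 20 skeletal muscle markers summed to at least 152100 CPM in muscle and at most 870 CPM in perirenal fat, but ranged from 1129 to 176000 CPM in the subcutaneous pools. In such bulk tissue, fewer cells of a type and less RNA per cell cannot be told apart.

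The loci were assembled separately in each tissue, and their extents (build Oar_v3.1) differed for some of the genes. PPARG2 lay on chromosome 19 between 56552008 and 56674199 in the perirenal table, started at 56552146 in muscle and ended at 56674314 in the subcutaneous table. CEBPA ended at 43019889 on chromosome 14 in each table and was 3489 bases long in muscle, 4090 in subcutaneous and 4782 in perirenal fat. The subcutaneous table held in addition an unnamed locus with the same start and end as CEBPA and with 0 counts in each pool. In that table ENSOARG00000021623, also with 0 counts in each pool, had the same start and end as PPARG2. In muscle and perirenal fat it spanned only 56674236 to 56674314, beyond the end of PPARG2. CEBPD started at 31967163 on chromosome 9. It shared its extent of 284653 bases in muscle and 284622 in perirenal fat with the neighbouring gene SPIDR, while in the subcutaneous table it was a separate locus of 783 bases. KLF15 on chromosome 19 ended at 59766117 and spanned 2074 bases in muscle and 1077 in both fats. Muscle held a second ARID5B locus of the same extent (chromosome 25, 17796368 to 17989204) with 0 counts. The part of these differences in the tissue contrasts was not tested, and they are the same for all pools of a tissue, so that diets are compared over 1 set of loci.

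**Figure D1:**
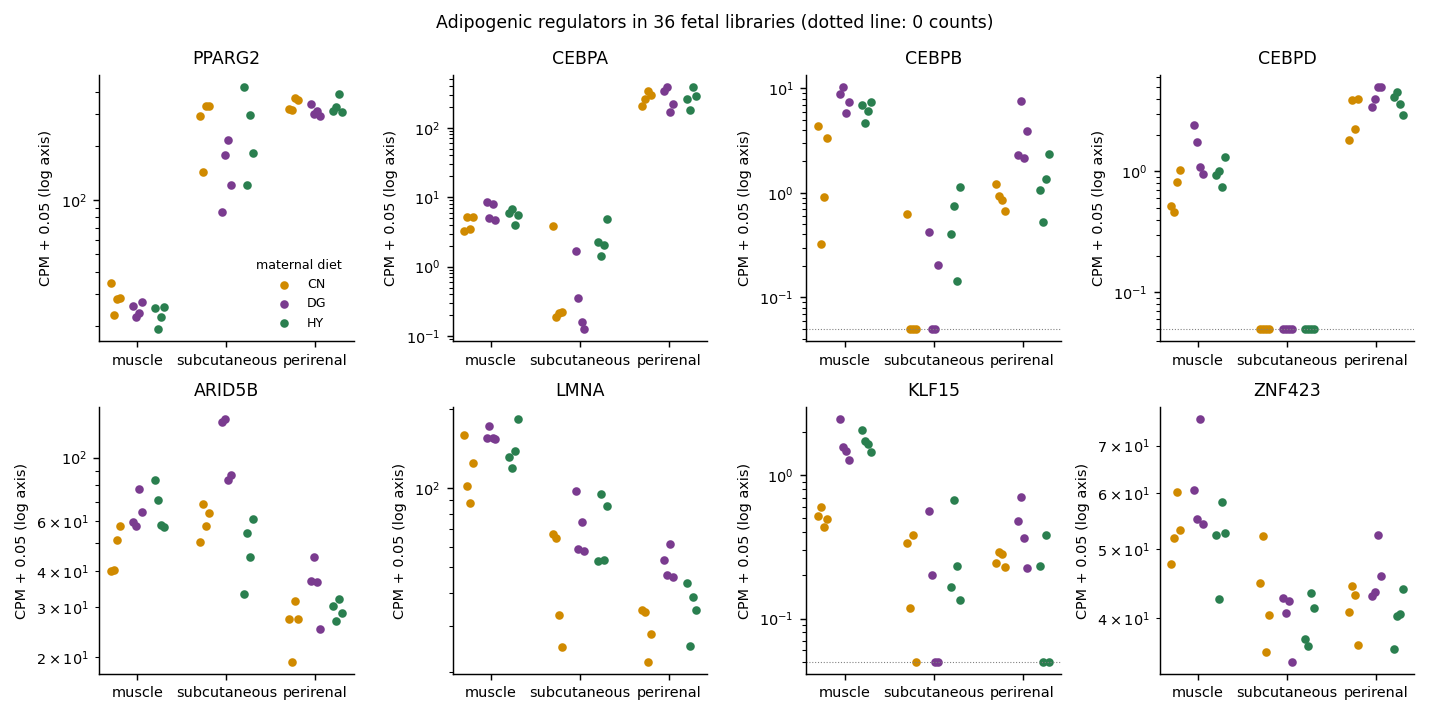
CPM (plus 0.05, log axis) of the 8 genes in each of the 36 libraries, by tissue on the x axis and maternal diet by colour, 4 pools per tissue and diet. The mean levels of PPARG2 and CEBPA are highest in perirenal fat and those of KLF15 and LMNA in muscle, and CEBPD is at 0 counts in the 12 subcutaneous pools.

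Levels in the 3 tissues were compared first. The subcutaneous pools held muscle RNA (marker sums of 1129 to 176000 CPM, against at most 870 CPM in perirenal fat). Its part in the contrasts with subcutaneous fat, here and for the gene lists below, was not tested. PPARG2, the gene of the nuclear receptor that directs fat cell differentiation, had 19.2 to 34.7 CPM in the 12 muscle pools (median 25.3), 86 to 426 CPM in the subcutaneous pools (median 197.8) and 291.5 to 390 CPM in the perirenal pools (median 318). The muscle pools lay below all fat pools, while the 2 fats overlapped. PPARG2 was 8.65-fold higher in subcutaneous fat than in muscle (log2 fold change 3.11 ± 0.17 SE, FDR = 4.18e-17, edgeR's quasi-likelihood test) and 13-fold higher in perirenal fat (3.70 ± 0.17, FDR = 6.1e-19, same test). Perirenal exceeded subcutaneous fat by 0.58 ± 0.15 on the log2 scale (FDR = 0.00139, same test). In the subcutaneous table another locus, with 0 counts, covered the extent of PPARG2. If reads over both loci were left out, the subcutaneous level is too low. The difference of 0.58 is then too large and the 8.65-fold difference too small, which was not tested. The subcutaneous level was the most variable, with an SD of 107 CPM against 30.2 CPM in perirenal and 3.96 CPM in muscle pools.

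CEBPA, which sustains the mature fat cell programme together with PPARG, was highest in perirenal fat. It had 170 to 390 CPM in the perirenal pools (median 273.7), 3.22 to 8.43 CPM in muscle (median 5.12) and 0.0774 to 4.86 CPM in subcutaneous fat (median 0.851, with 1 to 58 counts per pool). The perirenal pools stood apart from all other pools, and muscle and subcutaneous pools overlapped. The perirenal level was 51.8-fold that of muscle (log2 fold change 5.69 ± 0.33, FDR = 7.5e-16, edgeR's quasi-likelihood test) and 219-fold that of subcutaneous fat (7.78 ± 0.38, FDR = 1.75e-17). The subcutaneous level was 4.23-fold lower than that of muscle (log2 fold change -2.08 ± 0.35, FDR = 5.31e-06, same test), in the tissue whose table placed a second locus over CEBPA. How reads over both loci were counted is not given in the sources used here, and if they were left out, the subcutaneous level is too low and the 219-fold and 4.23-fold differences are too large.

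CEBPB and CEBPD, the early factors of the relay, were low in all tissues. CEBPB had 0.274 to 10.3 CPM in muscle, 0.475 to 7.56 CPM in perirenal and 0 to 1.09 CPM in subcutaneous pools, of which 5 of 12 had 0 counts. It was lower than in muscle in perirenal fat (log2 fold change -1.56 ± 0.37, FDR = 0.000283) and in subcutaneous fat (-4.20 ± 0.45, FDR = 1.12e-09, both by edgeR's quasi-likelihood test), though the ranges of the tissues overlapped. CEBPD had 1.75 to 4.97 CPM in perirenal fat and 0.412 to 2.35 CPM in muscle, a difference of 1.88 ± 0.21 on the log2 scale (FDR = 1.38e-08, same test). In subcutaneous fat it had 0 counts in all 12 pools. Against a floor of 3 counts per library (mean 0.298 CPM), its mean was at least 12.2-fold higher in perirenal fat and at least 3.47-fold higher in muscle. These bounds hold for the 783-base locus of that table only, set against loci of 284622 and 284653 bases that share the extent of SPIDR. How reads over both genes were counted is not given in the sources used here. The part of this in the CEBPD values, between tissues and between diets, was not tested.

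The other members did not follow the fat cell markers. LMNA fell from muscle (87.8 to 183 CPM, median 146) over subcutaneous (24.8 to 97.4 CPM, median 61.6) to perirenal fat (21.8 to 61.5 CPM, median 36.4). The step from muscle to perirenal fat was 3.69-fold (log2 fold change -1.88 ± 0.15, FDR = 6.08e-13) and without overlap, and that from subcutaneous to perirenal fat 1.66-fold (-0.73 ± 0.15, FDR = 6.06e-05, edgeR's quasi-likelihood test). ARID5B had 39.9 to 83.1 CPM in muscle and 33.3 to 136 CPM in subcutaneous fat, a difference of 0.21 ± 0.11 on the log2 scale (95% interval -0.01 to 0.43, FDR = 0.0865). It was lower in perirenal fat (19.2 to 44.7 CPM) than in muscle (log2 fold change -0.97 ± 0.11, FDR = 3.2e-09) and than in subcutaneous fat (-1.18 ± 0.11, FDR = 1.14e-10, same test).

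KLF15 was highest in muscle, with 0.387 to 2.41 CPM there, 0 to 0.62 CPM in subcutaneous and 0 to 0.652 CPM in perirenal pools. It was lower than in muscle in both fats (log2 fold changes -2.37 ± 0.38 and -2.22 ± 0.38, FDR = 1.86e-06 and 3.11e-06, edgeR's quasi-likelihood test). No fat pool had more than 8 counts, and the 2 fats did not differ beyond their spread (0.14 ± 0.47, 95% interval -0.79 to 1.07, FDR = 0.804). ZNF423, with tissue differences below those of the other called genes, had 42.5 to 76.1 CPM in muscle, 34.7 to 52.1 CPM in subcutaneous and 36.2 to 52.3 CPM in perirenal pools, with log2 fold changes against muscle of -0.43 ± 0.07 and -0.38 ± 0.07 (FDR = 3.68e-06 and 1.63e-05). The 2 fats differed by 0.05 ± 0.07 (95% interval -0.09 to 0.19, FDR = 0.556, same test).

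In all, 1 of 8 genes was higher and 6 lower in subcutaneous fat than in muscle, where 35.3% and 36.9% of all 13288 genes were called in these directions. In perirenal fat 3 were higher and 5 lower than in muscle (37.6% and 42.3% of all genes), and 4 were higher and 2 lower than in subcutaneous fat (30.8% and 35.9%). Tissue differences were thus common among all genes, and the direction and size of each gene is the result. Each of these 21 calls (2 of them CEBPD against its 0 counts in subcutaneous fat) was kept under every alternative run (RLE size factors, no filter, replicate block, DESeq2 and each library left out). These alternatives kept the same loci in each tissue and had no term for muscle RNA in the subcutaneous pools, so they cannot test either. ARID5B passed FDR ≤0.05 between muscle and subcutaneous fat when muscle HY F1, subcutaneous DG M1 or subcutaneous HY F1 was left out (FDR = 0.0486, 0.0453 and 0.0331).

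**Figure D2:**
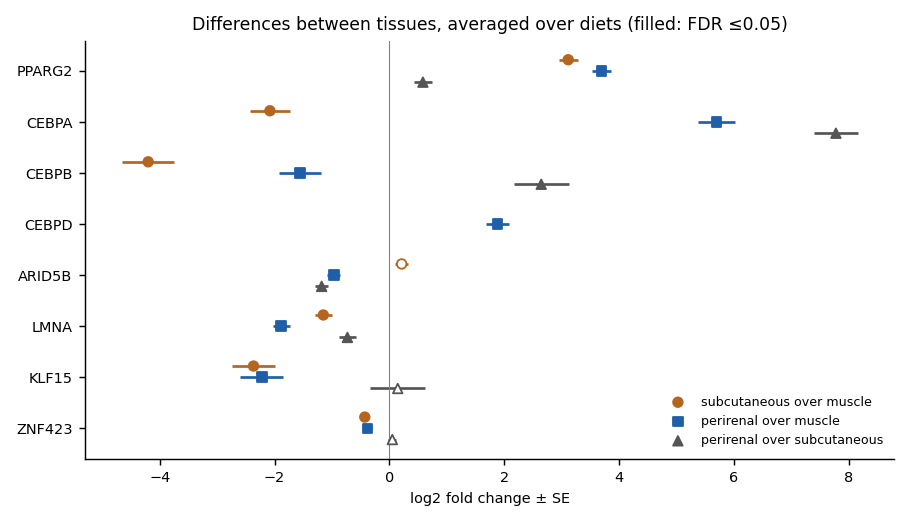
Log2 fold changes between tissues with their SE (x axis) for each gene (y axis), averaged over the 3 diets of the fit to 36 libraries; filled symbols passed FDR ≤0.05. CEBPA in perirenal fat is 5.69 above muscle and 7.78 above subcutaneous fat, and contrasts of CEBPD with subcutaneous fat are left out because its counts there are 0.

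Most fat cell target genes on the list were higher in both fats than in muscle, as PPARG2 was. Whether this reflects regulation by PPARG2 or the number of fat cells in each tissue was not tested. Of the 25 fat cell target genes on the list, 22 could be tested across tissues. In subcutaneous fat 19 were higher and 2 lower than in muscle (35.3% and 36.9% of all genes). Their median log2 fold change was 2.01 against -0.02 over all genes. In perirenal fat 21 were higher and 1 lower than in muscle (37.6% and 42.3% of all genes, median 3.31 against -0.06). Against subcutaneous fat 15 were higher and 2 lower (30.8% and 35.9% of all genes, median 0.81 against -0.04). G0S2, an inhibitor of lipolysis, was higher in perirenal than in subcutaneous fat by 7.29 ± 0.24, and PLIN1, the coat protein of the lipid droplet, by 5.40 ± 0.34 on the log2 scale (FDR = 1.94e-22 and 6.4e-15, edgeR's quasi-likelihood test). FABP4, the fatty acid binding protein of fat cells, exceeded its muscle level by 9.24 ± 0.47 in subcutaneous and 8.96 ± 0.46 in perirenal fat (FDR = 2.19e-17 and 2.5e-17, same test). The loci of the list genes in the 3 separate assemblies were not compared, here and for the lists below. The part of unlike loci in these tissue differences, and in the counts of genes called, was not tested.

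Regulators outside the 8 genes were split between directions. Over all genes, the shares called higher and lower were 35.3% and 36.9% in subcutaneous fat against muscle. They were 37.6% and 42.3% in perirenal fat against muscle, and 30.8% and 35.9% in perirenal against subcutaneous fat. The list counts are to be read beside these shares. Among 25 tested further pro-adipogenic regulators, 13 were higher and 9 lower in subcutaneous fat than in muscle, 12 were higher and 12 lower in perirenal fat than in muscle, and 7 were higher and 15 lower in perirenal than in subcutaneous fat. KLF9, which acts on the PPARG promoter, was higher than in muscle by 3.69 ± 0.16 and 3.34 ± 0.16 in the 2 fats (FDR = 1.62e-19 and 1.06e-18, edgeR's quasi-likelihood test). PPARGC1A, a coactivator of mitochondrial genes, was lower in perirenal than in subcutaneous fat (log2 fold change -2.69 ± 0.19, FDR = 1.05e-13, same test). Of 19 tested anti-adipogenic regulators, 7 were higher and 8 lower in subcutaneous fat than in muscle, 7 higher and 9 lower in perirenal fat than in muscle, and 2 higher and 8 lower in perirenal than in subcutaneous fat. DLK1, the preadipocyte factor that holds back differentiation, was lower in perirenal than in subcutaneous fat (log2 fold change -2.42 ± 0.38, FDR = 1.84e-06, same test). The part of muscle RNA of the subcutaneous pools in the values of DLK1 and PPARGC1A was not tested. SOX9 had 208 to 324 counts in muscle and 0 in each fat pool, also in the subcutaneous pools with muscle marker sums of up to 176000 CPM. The SOX9 loci of the 3 separate assemblies were not compared, so the 0 counts are not read as a difference in level. Of 13 other nuclear envelope genes, 4 were higher and 6 lower in subcutaneous fat than in muscle, 2 higher and 6 lower in perirenal fat than in muscle, and 2 higher and 4 lower in perirenal than in subcutaneous fat. LMNB2, the gene of lamin B2, was higher than in muscle by 1.49 ± 0.11 in subcutaneous and 1.32 ± 0.11 in perirenal fat (FDR = 3.5e-13 and 3.87e-12, same test), opposite in direction to LMNA. Of 6 tested glucocorticoid-induced genes, 3 were higher in subcutaneous fat and 2 higher and 1 lower in perirenal fat than in muscle, and 3 were lower in perirenal than in subcutaneous fat.

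The maternal diets were then compared within each tissue. In muscle, KLF15 was lower in the CN group than in both other groups. Its counts were 6, 8, 4 and 5 in the CN pools F1, F2, M1 and M2, 40, 25, 22 and 27 in the DG pools and 32, 30, 23 and 20 in the HY pools. The lowest DG and HY pools lay well above the highest CN pool, so that CN did not overlap with either, while DG and HY did overlap. In CPM the means were 0.463 ± 0.067 (SD, n = 4) for CN, 1.65 ± 0.52 for DG and 1.67 ± 0.25 for HY. KLF15 was 3.42-fold higher in DG than in CN (log2 fold change 1.77 ± 0.31 SE, FDR = 0.0178) and 3.54-fold higher in HY than in CN (1.82 ± 0.31, FDR = 0.0143, edgeR's quasi-likelihood test). DG and HY differed by -0.05 ± 0.27 (95% interval -0.57 to 0.47, FDR = 0.9998).

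KLF15 was the 1 gene of the 8 called at FDR ≤0.05 in each of these 2 comparisons, where 1.02% (CN vs. DG) and 2.95% (CN vs. HY) of 18156 genes were called. The 2 comparisons share the CN pools. Without CN M1, CN M2 or DG M1 the log2 fold change of CN vs. DG was 1.70, 1.75 and 1.82, and its FDR rose to 0.0658, 0.0599 and 0.0599. Without CN M1, CN M2 or HY F1 that of CN vs. HY was 1.75, 1.80 and 1.72 (FDR = 0.0536, 0.0522 and 0.0610). In a fit of the 8 pools of CN and DG it was 1.76 (FDR = 0.0899), so the calls were lost at a fold change of similar size. With all muscle libraries thinned to the lowest total, the log2 fold changes were 1.61 (FDR = 0.0452) and 1.74 (FDR = 0.0238). Thinning equalised the totals only, and the part of the lower CN totals in the difference was otherwise not tested.

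The C/EBP factors of muscle were also lowest in CN, without passing FDR ≤0.05. CEBPB had 55, 4, 9 and 37 counts in the CN pools, 145, 169, 90 and 164 in DG and 109, 82, 87 and 105 in HY. Each CN pool lay below each DG and HY pool. The CN pools were uneven (0.274 to 4.32 CPM), and CEBPB was 3.64-fold higher in DG (FDR = 0.0979) and 2.83-fold higher in HY (FDR = 0.118, SE of both 0.51 on the log2 scale, edgeR's quasi-likelihood test). DESeq2 called CEBPB in both (FDR = 0.0086 and 0.0346), and without CN F1 the first passed with edgeR as well (log2 fold change 2.45, FDR = 0.0496). CEBPD had 6, 6, 8 and 11 counts in CN, 39, 28, 16 and 20 in DG and 14, 17, 10 and 18 in HY, with log2 fold changes over CN of 1.17 ± 0.40 (FDR = 0.177) and 0.54 ± 0.41 (FDR = 0.488). CEBPA had 3.22 to 5.15 CPM in the CN pools, 4.58 to 8.43 in DG and 3.9 to 6.65 in HY, with overlapping pools and FDR = 0.282 and 0.44.

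ARID5B in muscle had 39.9, 40.2, 51.4 and 57.5 CPM in CN, 59.4, 57.5, 77.5 and 64.2 in DG and 83.1, 70.8, 58.1 and 57.2 in HY. The CN pools were the lowest, just below DG and overlapping with HY. The log2 fold changes were 0.44 ± 0.16 in DG (FDR = 0.219) and 0.51 ± 0.16 in HY (FDR = 0.102). LMNA had 119 ± 31.6 CPM (mean ± SD, n = 4) with CN, 160 ± 8.77 with DG and 143 ± 27.6 with HY, and log2 fold changes over CN of 0.41 ± 0.17 (FDR = 0.258) and 0.27 ± 0.17 (FDR = 0.39). PPARG2 had the opposite sign, with 28.6 ± 4.81 CPM (CN), 24.8 ± 2.16 CPM (DG) and 23.0 ± 2.91 CPM (HY), and values of -0.22 ± 0.14 (FDR = 0.463) and -0.31 ± 0.14 (FDR = 0.239, edgeR's quasi-likelihood test). ZNF423 had 53.2 ± 5.19, 61.5 ± 10.1 and 51.4 ± 6.53 CPM in CN, DG and HY, with FDR = 0.49 and 0.872 against CN.

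At FDR ≤0.20, 3 of 8 genes were called in CN vs. DG (KLF15, CEBPB and CEBPD; background 7.01%) and 3 in CN vs. HY (KLF15, CEBPB and ARID5B; background 15.9%). The median log2 fold change of the 8 genes was 0.52 and 0.45, against 0.00 and -0.02 over all genes tested. No member was called between HY and DG at either threshold by edgeR, where 0% of the 18156 genes was called. DESeq2 called none at FDR ≤0.05. No member had an unadjusted p under 0.05 with edgeR's quasi-likelihood test, which 396 of the 18156 genes had.

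**Figure D3:**
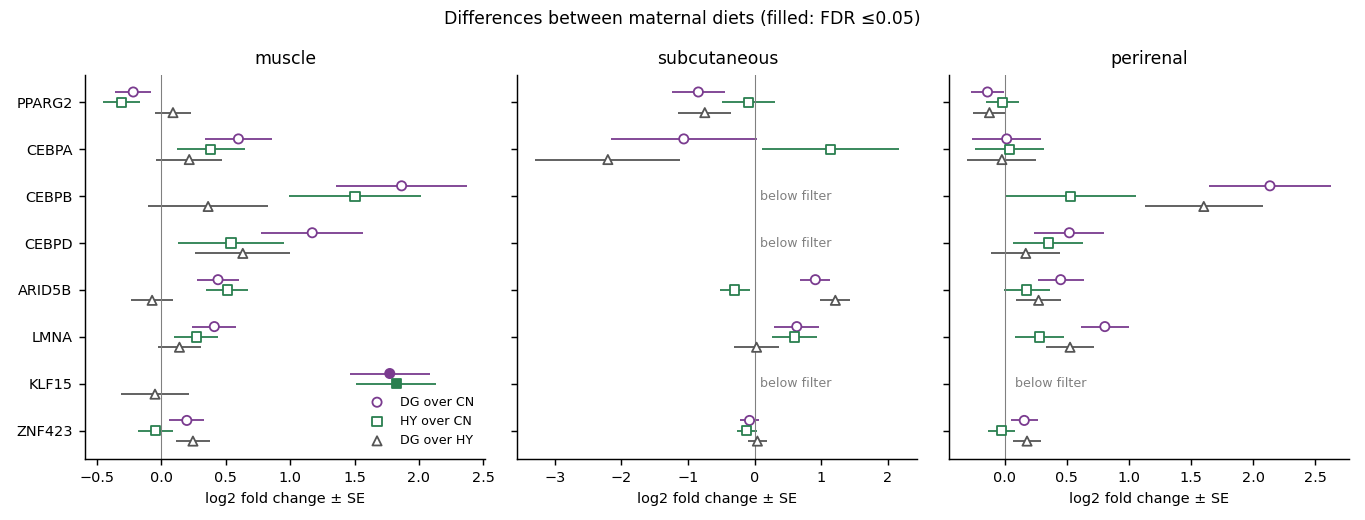
Log2 fold changes between maternal diets with their SE (x axis) for each gene (y axis) in the 3 tissues; the x ranges differ between panels and filled symbols passed FDR ≤0.05. KLF15 in muscle, at 1.77 for DG and 1.82 for HY over CN, is filled, and the genes marked as below filter had too few counts to be tested.

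A few other genes of fat cell formation were also lower in CN muscle. LIPE, the hormone-sensitive lipase named HSL in the tables, was 1.28 ± 0.26 higher in DG and 1.18 ± 0.26 higher in HY than in CN on the log2 scale (FDR = 0.036 and 0.0355, edgeR's quasi-likelihood test). It was the 1 of 19 tested fat cell target genes called at FDR ≤0.05 in DG, where 1.02% of all genes were called. In HY it was 1 of 3 called (2.95% of all genes). The others were PNPLA2, the lipase of the first step of lipolysis (0.64 ± 0.14, FDR = 0.0355), and PLIN4, a lipid droplet protein (1.84 ± 0.46, FDR = 0.0488). The list medians were 0.48 and 0.43. SREBF1, the regulator of fatty acid synthesis, rose by 1.01 ± 0.21 in DG and 0.95 ± 0.21 in HY (FDR = 0.0394 and 0.0353), and KLF9, like KLF15 a glucocorticoid-responsive factor, by 1.46 ± 0.29 in HY (FDR = 0.0241, same test). These were the 1 (DG) and 2 (HY) genes called among the 25 tested further pro-adipogenic regulators, beside 1.02% and 2.95% of all genes. The list medians were 0.11 and 0.07.

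Among 19 tested anti-adipogenic regulators none passed in either comparison. Among those with the smallest p were KLF2 (1.98 ± 0.64, FDR = 0.155) in DG, and SOX9 (-0.52 ± 0.16, FDR = 0.0882) and TWIST1 (-0.69 ± 0.22, FDR = 0.104) in HY. LMNB2 was the 1 of 13 nuclear envelope genes called at FDR ≤0.05 (1.02% and 2.95% of all genes were called). It was higher by 0.91 ± 0.19 in DG and 1.08 ± 0.19 in HY (FDR = 0.037 and 0.0148, edgeR's quasi-likelihood test). The list medians were -0.03 and -0.02. Of the glucocorticoid-induced genes, 7 of 9 could be tested and none passed. Their medians were -0.18 and 0.07, NFKBIA had -0.33 ± 0.21 in DG (FDR = 0.462) and -0.49 ± 0.22 in HY (FDR = 0.222), GADD45A had -0.27 ± 0.19 in DG and SGK1 0.28 ± 0.15 in HY. The summed adipocyte markers of muscle were 1.68 and 0.81 higher than in CN on the log2 scale (p = 0.057 and 0.26, two-sided exact permutation test), and those of endothelium (4 of 5 in the tables) 0.30 higher in both DG and HY (p = 0.029, the smallest this exact permutation test can give). The adrenal cortex markers (1 of 5 with a median of at least 10 counts in either tissue) were lower in HY than in CN muscle (log2 difference -0.36). They were higher in DG than in HY perirenal fat (0.34, both p = 0.029, same exact permutation test). Of 90 such marker comparisons 5 had this p, and none passed the Benjamini-Hochberg adjustment (adjusted p = 0.514). The part of these markers in the results was not tested.

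In subcutaneous adipose tissue 5 of the 8 genes had enough counts to be tested, and CEBPB, CEBPD and KLF15 did not pass the filter. ARID5B was the member with the clearest diet pattern. It had 50.4, 68.8, 57.4 and 64.1 CPM in the CN pools F1, F2, M1 and M2, 133, 136, 83.6 and 87.1 CPM in the DG pools and 33.3, 54.4, 44.7 and 60.9 CPM in the HY pools. The 4 DG pools lay above all other subcutaneous pools, and CN and HY overlapped. ARID5B was 2.32-fold higher in DG than in HY (log2 fold change 1.21 ± 0.23, FDR = 0.103) and 1.88-fold higher in DG than in CN (0.91 ± 0.22, FDR = 0.258, edgeR's quasi-likelihood test), while HY and CN differed by -0.30 ± 0.22 (FDR = 0.941).

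None of the 5 genes was called at FDR ≤0.05 in any subcutaneous comparison, where 0% of 17744 genes was called. At an unadjusted p under 0.05 (edgeR's quasi-likelihood test), 2654 of the 17744 genes passed in CN vs. DG and 3222 in HY vs. DG. Of the 5 genes, ARID5B alone passed in each. DESeq2 called ARID5B in both (FDR = 0.0224 and 0.000827), with no share of all genes given here. At FDR ≤0.20 it was the 1 of 5 called in HY vs. DG, with 10.9% of all genes, and the other comparisons called 0%. Its call in HY vs. DG was gained with the pool name as a block (FDR = 0.0399), with the muscle marker level as a covariate (log2 fold change 1.08, FDR = 0.0411) and without DG M1 or HY F2 (FDR = 0.0495 and 0.0417), and in CN vs. DG with the covariate (0.83, FDR = 0.0382). It was not called at FDR ≤0.05 in the other 10 of 12 fits of HY vs. DG with a library left out, and the FDR passed 0.20 without DG F2, DG M2, HY F1, HY M1 or HY M2 (0.344, 0.268, 0.322, 0.268 and 0.244). In CN vs. DG it was called in 0 of 12 such fits (FDR = 0.0792 to 0.572). The study had named ARID5B as higher in DG from these same libraries. Its calls beside the shares of all genes are thus no independent support.

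PPARG2 had 294, 143, 333 and 333 CPM in the subcutaneous CN pools, 86.0, 177, 214 and 120 in DG and 426, 121, 298 and 182 in HY. The DG mean was the lowest (149 ± 57.2 CPM against 276 ± 90.6 CPM with CN and 257 ± 135 CPM with HY, SD, n = 4), but the pools overlapped, and the log2 fold changes of -0.85 ± 0.40 over CN (FDR = 0.346) and -0.75 ± 0.40 over HY (FDR = 0.335, edgeR's quasi-likelihood test) did not pass.

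Muscle RNA in these pools moved with both genes. The summed muscle markers were 26510, 82410, 5225 and 14680 CPM in the CN pools, 176000, 80630, 1239 and 105900 in DG and 1129, 146300, 3908 and 25790 in HY. Diets did not differ beyond the spread (DG over HY 1.70 on the log2 scale, p = 0.46, DG over CN 0.87, p = 0.69, and HY over CN -0.83, p = 0.69, two-sided exact permutation test). Over the 12 pools, which differ in depth and share dams, Pearson's r of the log2 values with the marker sum was -0.81 for PPARG2, 0.58 for ARID5B, 0.41 for LMNA, 0.18 for ZNF423 and -0.02 for CEBPA. After subtraction of the diet means it was -0.86 for PPARG2 and 0.72 for ARID5B. The DG pool with the least muscle RNA, M1, had 83.6 CPM of ARID5B, the lowest of the 4 DG pools. The brown adipocyte markers were also lower in DG than in HY (log2 difference -0.51, p = 0.029, adjusted p = 0.514, exact permutation test), and their part was not tested.

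**Figure D4:**
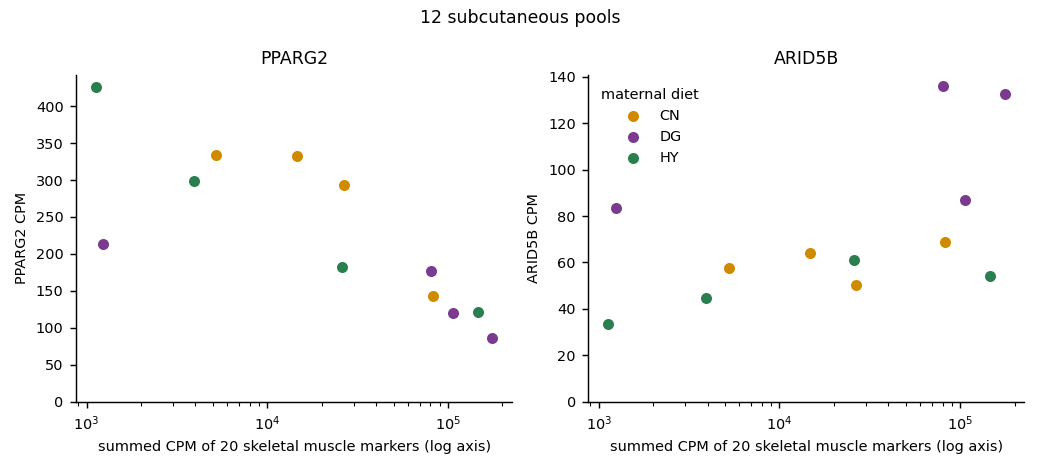
PPARG2 and ARID5B level (CPM, y axis) against the summed CPM of 20 skeletal muscle markers (x axis, log) in the 12 subcutaneous pools, coloured by diet. PPARG2 falls and ARID5B rises with the marker sum, and the 4 DG pools have the highest ARID5B values, from 83.6 to 136 CPM.

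CEBPA counts in subcutaneous fat were 53, 2, 1 and 1 in the CN pools, 22, 4, 1 and 1 in DG and 19, 18, 22 and 58 in HY. HY was the group in which each pool had more than 4 counts, and 1 CN and 1 DG pool (F1 in both) reached the same range. The entry of CEBPA into the test depended on the HY pools. The log2 fold change of DG over HY was -2.20 ± 1.09 (FDR = 0.303) and that of HY over CN 1.14 ± 1.03 (FDR = 0.944, edgeR's quasi-likelihood test). CEBPB, untested here, had 8, 0, 0 and 0 counts in CN, 5, 0, 0 and 2 in DG and 3, 9, 1 and 13 in HY. KLF15 had at most 8 counts in a pool. LMNA was at 47.3 ± 21.6 CPM (CN), 72.2 ± 18.5 CPM (DG) and 71.9 ± 22.1 CPM (HY; SD, n = 4) and ZNF423 at 34.7 to 52.1 CPM over the 12 pools, with FDR of at least 0.376 in each comparison.

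The other gene lists gave no call at FDR ≤0.05 in subcutaneous fat. The fat cell target genes (21 tested) had medians of -0.79 in DG over CN and -0.83 in DG over HY, against -0.01 and 0.00 over all genes. At FDR ≤0.20 4 of them were lower and 0 higher in DG than in HY. Of all 17744 genes 10.9% were called in the 2 directions together, 1034 of these 1937 being higher. DGAT1 and AGPAT2, enzymes of triglyceride synthesis, had -1.90 ± 0.46 (FDR = 0.115) and -1.62 ± 0.51 (FDR = 0.155) in DG over HY, and LIPE and ELOVL6 had -1.09 ± 0.43 (FDR = 0.295) and -0.98 ± 0.40 (FDR = 0.306) in DG over CN. STAT5A had -0.93 ± 0.21 (FDR = 0.108) and MED1, a coactivator subunit, 0.47 ± 0.14 (FDR = 0.145) in DG over HY. PHF2, the histone demethylase that acts with ARID5B, had 0.72 ± 0.23 (FDR = 0.263), PPARA 0.97 ± 0.28 (FDR = 0.259) and the corepressor NCOR1 0.67 ± 0.19 (FDR = 0.259) in DG over CN.

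In perirenal adipose tissue 7 of the 8 genes were tested, all but KLF15, which had 0 to 7 counts. CEBPB was highest in DG, with 12, 11, 7 and 7 counts in the CN pools, 37, 58, 20 and 44 in DG and 11, 5, 16 and 19 in HY. In CPM the DG pools (2.11 to 7.56) lay above the CN pools (0.622 to 1.17) and overlapped with HY (0.475 to 2.28). CEBPB was 4.39-fold higher in DG than in CN (log2 fold change 2.13 ± 0.49, FDR = 0.124) and 3.04-fold higher than in HY (1.60 ± 0.48, FDR = 0.333, edgeR's quasi-likelihood test).

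LMNA had 34.2, 33.8, 21.8 and 27.8 CPM in the perirenal CN pools, 53.2, 46.9, 61.5 and 45.7 in DG and 43.4, 25.1, 38.5 and 34.4 in HY. The DG pools were above all CN and HY pools. The log2 fold change was 0.81 ± 0.20 over CN (FDR = 0.136) and 0.53 ± 0.19 over HY (FDR = 0.418, edgeR's quasi-likelihood test). At FDR ≤0.20 CEBPB and LMNA were the 2 of 7 genes called in CN vs. DG, against 1.65% of 17926 genes. The study had named both as higher in DG from these same libraries, so this share is no independent support. Both passed FDR ≤0.20 no longer with the replicate block (FDR = 0.233 and 0.207). CEBPB lost it without CN F2, CN M1, CN M2 or DG F2 (FDR = 0.258, 0.261, 0.32 and 0.259), and LMNA without CN F2, CN M1, CN M2 or DG M1 (FDR = 0.224, 0.282, 0.32 and 0.245). None was called at FDR ≤0.05, where 0% of all genes was called in each perirenal comparison. At an unadjusted p under 0.05 (edgeR's quasi-likelihood test), 3 of 7 passed in CN vs. DG (with ARID5B) and 2 in HY vs. DG. Over all 17926 genes, 1765 and 1786 passed. DESeq2 called CEBPB and LMNA in CN vs. DG (FDR = 0.00662 and 0.0164), with no share of all genes given here.

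The factors of the mature fat cell did not differ beyond the spread in perirenal fat. PPARG2 had means of 341 ± 27.1 CPM (CN), 311 ± 21.9 CPM (DG) and 334 ± 38.4 CPM (HY; SD, n = 4), with log2 fold changes between -0.14 and -0.02 for the 3 comparisons and a 95% interval of -0.40 to 0.12 for DG over CN. CEBPA had 273.8 ± 54.4, 277 ± 98.7 and 277 ± 87.9 CPM, with an interval of -0.53 to 0.56 for DG over CN. ARID5B had 26.2 ± 5.06, 35.9 ± 8.10 and 29.2 ± 2.22 CPM in CN, DG and HY (DG over CN 0.45 ± 0.18, FDR = 0.421), CEBPD 2.93 ± 1.12, 4.28 ± 0.79 and 3.73 ± 0.68 CPM (0.52 ± 0.28, FDR = 0.59), and ZNF423 41.2 ± 3.39, 46.1 ± 4.31 and 40.2 ± 3.16 CPM (0.16 ± 0.11, FDR = 0.699, edgeR's quasi-likelihood test).

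No gene of the pathway lists passed FDR ≤0.05 between diets in perirenal fat. At FDR ≤0.20, PRDM16, a regulator of brown fat identity, was among the list genes called in DG over CN (0.79 ± 0.22, FDR = 0.186). DGAT1 had 0.68 ± 0.20 (FDR = 0.209), FABP4 0.57 ± 0.20 (FDR = 0.339) and RXRA, the partner of PPARG on DNA, 0.88 ± 0.35 (FDR = 0.397) in the same comparison. The list medians in DG over CN lay between -0.17 and 0.12, against -0.02 over all genes.

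**Figure D5:**
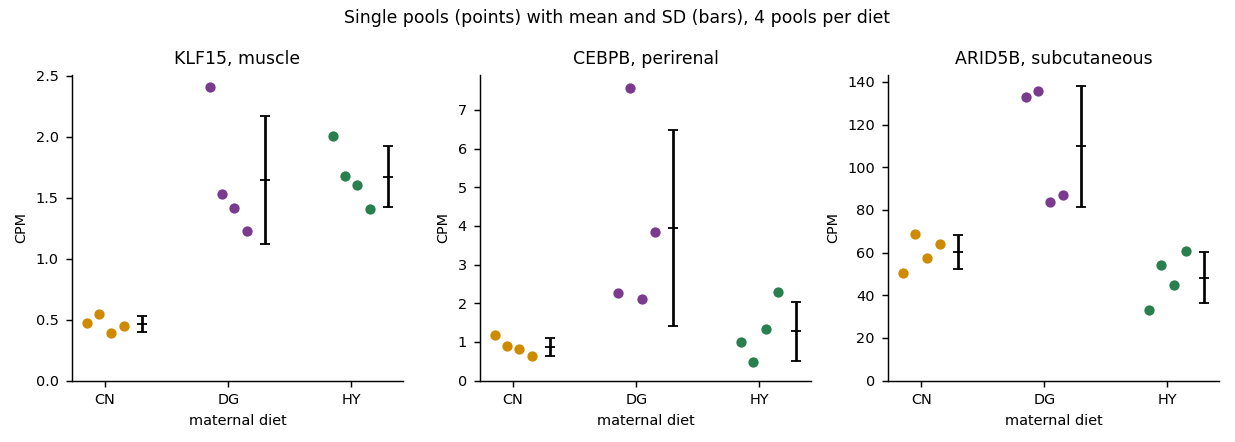
Single pools (points, CPM) by maternal diet with mean and SD (bars, n = 4) for KLF15 in muscle, CEBPB in perirenal and ARID5B in subcutaneous fat. KLF15 is lowest in CN (mean 0.463 CPM), CEBPB highest in DG (mean 3.95 CPM) and ARID5B highest in DG (mean 109.8 CPM).

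Whether diets acted differently between tissues was tested in the fit of all 36 libraries. For HY against DG, ARID5B differed between subcutaneous fat and muscle (log2 difference of the diet effects 1.24 ± 0.27, FDR = 0.0429) and between perirenal and subcutaneous fat (-0.89 ± 0.28, FDR = 0.0447, edgeR's quasi-likelihood test). Its difference of DG over HY was 1.21 in subcutaneous fat, -0.07 ± 0.16 in muscle and 0.27 ± 0.18 in perirenal fat. It was the 1 of 8 genes called in each, where 0.482% and 7.14% of 13288 genes were called. ARID5B was already named by the study for DG subcutaneous fat in these libraries, so these shares are no independent support.

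Both calls depended on the fit. With the pool of fetuses as a block over the tissues the FDR was 0.0854 and 0.0591, and the filter mattered for the first (0.0544 without it). The first was lost when any of 20 of the 36 libraries was left out (8 of muscle, 5 of subcutaneous and 7 of perirenal fat, FDR up to 0.146 without subcutaneous DG F2) and the second for 13 (2, 4 and 7, FDR up to 0.104 without subcutaneous HY F1). The size of the differences moved little, from 1.10 to 1.37 and from -1.02 to -0.75. The muscle marker level was not a covariate in these fits, and the part of muscle RNA in the subcutaneous pools was not tested. CEBPB had a difference of 3.57 ± 1.15 between perirenal and subcutaneous fat for HY against DG (FDR = 0.0537), which passed with the block (FDR = 0.0467) and with DESeq2 (FDR = 0.0161), on subcutaneous counts of at most 13.

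In the 7 other contrasts of diet effects none of the 8 genes was called by edgeR or DESeq2. The backgrounds with edgeR were 0.0226% for CN vs. DG between muscle and subcutaneous fat, 0.00753% for CN vs. DG between the 2 fats, and 0% for the rest. At an unadjusted p under 0.05 (edgeR's quasi-likelihood test), 1 gene passed for CN vs. HY between muscle and subcutaneous fat (ARID5B, FDR = 0.42) and 1 between muscle and perirenal fat (KLF15, -2.38 ± 1.03, FDR = 0.659). Over all 13288 genes, 939 and 921 passed. The KLF15 counts in both fats were too low to show whether its muscle difference is shared.

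Female and male pools did not differ for any of the 8 genes in any tissue by edgeR's quasi-likelihood test or by DESeq2. The backgrounds with edgeR were 0% in muscle and subcutaneous and 0.0223% in perirenal fat. None of the 8 had an unadjusted p under 0.05 with edgeR, which 698 (muscle), 2634 (subcutaneous) and 584 (perirenal) of all genes had. The smallest FDR was that of LMNA in subcutaneous fat (males over females -0.52 ± 0.24, FDR = 0.34, edgeR's quasi-likelihood test).

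The genes whose deviations from the tissue and diet means were most like those of a member over the 36 libraries are given by Pearson's r of log2 CPM among 10641 genes, as a description of libraries that share depth and muscle RNA. TMEM135 (0.90), MFNG (0.87) and PDE3B (0.86) were most like PPARG2, but only at 0.19, 0.31 and 0.31 over the 24 libraries without subcutaneous fat. SLC25A1, the citrate carrier that feeds fatty acid synthesis, and MID1IP1, an activator of acetyl-CoA carboxylase, were most like CEBPA (0.82 and 0.79, and 0.61 and 0.80 without subcutaneous fat), followed by SLC25A6 (0.79). RAB21 (0.74), SLC35F5 (0.72) and CDC37L1 (0.71) were most like ARID5B, SCARA3 (0.85), ARHGDIA (0.84) and ENSOARG00000007061 (0.84) most like LMNA, and TGIF1 (0.55), NUMBL (0.55) and DARC (0.54) most like ZNF423. CEBPB, CEBPD and KLF15 had too few counts for this comparison.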

How the data were processed

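The authors aligned single-end reads to the sheep genome Oar_v3.1 with TopHat2 2.0.4 and assembled loci per tissue with Cufflinks 2.1.1. The deposited values are raw read counts per locus, 1 file per library, without normalization, and the submitters' notes also name HTSeq. Strand use and the treatment of reads over 2 loci are not given in the sources used here. Unnamed loci held 3.56% to 14.8% of the counts.

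Loci of the same name were summed. Diets were compared per tissue in edgeR 4.0.16 (R 4.3.3) over 12 pools: filterByExpr (minimum count 10, total 15), TMM, quasi-likelihood F test with robust estimation, Benjamini-Hochberg FDR over all rows. Tissues and differences of diet effects were tested in 1 fit of 36 libraries joined by name, and sexes with diet in the model. SEs were derived from each log2 fold change and its F statistic and are approximate. CPM scaling over 36 libraries and within a tissue differed between pools of a tissue by at most 8.51%. Marker sums were compared by exact permutation (0.5 CPM added, adjusted over 90 tests). The members, lists, tests and rule for named genes (members; list genes past FDR ≤0.05, at most 4 per list, otherwise those with the smallest p, given here for the comparisons with calls or the largest differences) were chosen with earlier results of these data known. The values of 1 list gene are not reported here. The marker lists, as summed CPM in muscle, subcutaneous and perirenal pools, were: adipose progenitor and fibroblast 6824 to 11270, 4541 to 12050 and 2182 to 7959; brown adipocyte 399 to 1006, 266 to 571 and 1012 to 2001; endothelial 631 to 986.5, 756 to 2332 and 1372 to 2273; immune 60.7 to 80.7, 268 to 421 and 248 to 351; erythroid 186 to 541, 259.6 to 1633 and 1343 to 3244; kidney at most 8.12 and adrenal cortex at most 48, with AQP2, UMOD and CYP11B1 at 0; skin epithelium 32.3 to 412.

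Alternatives were RLE size factors, no filter, DESeq2 1.42.0, a replicate block, the compared diets only, loci not summed, a muscle marker covariate in subcutaneous fat and each library left out. Named loci only and thinning were added after seeing the data. Pools of the 3 tissues come from the same fetuses per the study's list of pools, and same-named pools correlated at a mean of 0.07 across tissues. In the 54 pairs of libraries of 1 group, chi-square per degree of freedom was 9.93 or more, so none was taken as a copy. The fit was tested on simulated data. Other tools were limma 3.58.1, Python 3.11.15, scipy 1.17.1, numpy 2.4.6, pandas 2.3.3 and matplotlib 3.10.9.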

Additional observations from a re-analysis of the deposited data

Results flagged for a closer look

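In 69 groups of 4 pools of the 8 genes, 4 held a pool far from the other 3 (by Dixon's test of the gap over the range), and chance flags about 1 in 20 such groups. These were CEBPA in subcutaneous CN F1 (3.82 CPM, the others at most 0.176) and DG F1 (1.63 CPM, the others at most 0.306), CEBPB in subcutaneous CN F1 (0.576 CPM, the others at 0) and LMNA in muscle DG F2 (172.6 CPM, the others 154 to 156). Of the 4, 2 are the same library, subcutaneous CN F1.

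The diet effect of HY against DG on ARID5B differed between tissues in the main fit, by 1.24 on the log2 scale between muscle and subcutaneous fat and by -0.89 between subcutaneous and perirenal fat, both by the test of the difference itself. These calls were lost with the replicate block and when any of 20 and 13 of the 36 libraries was left out. The part of muscle RNA in the subcutaneous pools was not tested.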

How the results depend on the processing

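The shares of all genes called by DESeq2 are not given here. Numbers of the 8 genes called at FDR ≤0.05 changed as follows. With DESeq2 it was 2 in muscle for both DG and HY against CN (1 in each in the report), 1 in subcutaneous fat for CN vs. DG and for HY vs. DG (0), 2 in perirenal fat for CN vs. DG (0) and 2 for the difference of HY vs. DG between subcutaneous and perirenal fat (1). With the muscle marker covariate it was 1 in subcutaneous fat for CN vs. DG and for HY vs. DG, and with only the compared diets 0 for CN vs. DG in muscle. With the replicate block it was 1 for HY vs. DG in subcutaneous fat and 0 for HY vs. DG between muscle and subcutaneous fat, which was also 0 without the filter. For HY vs. DG between the 2 fats the block lost the call of ARID5B and gained that of CEBPB, and it changed no other call. Same-numbered pools of different diets correlated at means of -0.04, 0.24 and 0.06 in muscle, subcutaneous and perirenal fat. Such pools share fetal sex, but not every pair correlated above 0.1 (lowest -0.45, -0.52 and -0.13), so the numbers were not taken to pair them.

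With each library left out, the number ranged from 0 to 2 (CN vs. DG) and from 0 to 1 (CN vs. HY) in muscle, from 0 to 1 for HY vs. DG in subcutaneous fat, from 0 to 3 for HY vs. DG between muscle and subcutaneous fat and between the 2 fats, and from 0 to 1 for CN vs. HY between the 2 fats. No called gene changed sign under the alternatives run. The 2 diet calls were kept in 33 of 40 alternatives, the 21 tissue calls in 840 of 840 and the 2 calls of different diet effects in 44 of 80. The alternatives for tissue calls did not vary the loci of a tissue or adjust for muscle RNA in the subcutaneous pools. KLF15, CEBPB and CEBPD had at most 169 counts in any pool. The cause of these changes was not tested.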
